A study of Mus musculus with 6 samples.

Results

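The mitochondrial ribosomal protein genes were examined in mouse ovary. Members were the genes whose symbol is Mrpl or Mrps followed by a number and at most 1 letter, with a mean of at least 1 CPM over the 6 libraries. CPM, the usual depth-normalised read count, relates the reads of a gene to all counts of its library, here after scaling the libraries with TMM factors. The rule found 78 genes among the 51826 in the table, and all 78 also passed the filter on low counts that left 19027 genes for testing. The rule itself used neither the groups nor any difference between them, but it was chosen with earlier results of these data known.

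Frozen ovaries of outbred ICR mice were profiled by bulk RNA sequencing in 3 groups of 2 libraries. The first group is labelled COH, an abbreviation that the labels do not spell out, with no model and no agent named. The second is labelled OHSS, a mouse model of ovarian hyperstimulation syndrome. The third is the same model given Nintedanib (bibf1120), an inhibitor of the kinases of the vascular endothelial, platelet-derived and fibroblast growth factor receptors. The labels give no age, genotype, hormone schedule, dose or time of collection for any of the groups. Whether libraries of 1 group stem from different animals is not said, so p-values describe the spread among these samples alone, and that spread may be technical.

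The mitochondrial ribosome translates the mRNAs that the mitochondrial genome encodes, all of them for proteins of the respiratory chain and ATP synthase. Its RNA is made inside the organelle, whereas its proteins are made from nuclear genes in the cytosol and imported. The small subunit holds the mRNA and reads the codons, and the large subunit joins the amino acids and is anchored to the inner membrane. In the ovary, oocytes carry very many mitochondria and luteal cells begin steroid synthesis inside them, and inherited variants in genes of mitochondrial translation, MRPS22 among them, are known from ovarian insufficiency in people.

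Of the 78 members, 51 code for proteins of the large subunit, 26 for proteins of the small subunit and 1, Mrps36, for a protein now placed in a mitochondrial dehydrogenase complex. Mrps30 and Mrps18a are named for the small subunit, but their proteins sit in the large one and were counted there. A bacterial counterpart is known for 46 of the ribosomal members, and 31 are specific to mitochondria.

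Libraries held 28498435 to 34716751 counts each, and a member had between 112 and 3547 counts in any of them. Transcripts of the mitochondrial genome made up 5.21 and 5.96% of the COH libraries, 6.80 and 7.10% of the OHSS libraries and 5.88 and 5.72% of those with nintedanib. Ovarian markers were abundant. The 7 luteal markers summed to 25716 and 27786 CPM in COH, 31399 and 34596 CPM in OHSS and 26464 and 22963 CPM under nintedanib. The 9 granulosa markers summed, in the same order, to 3415 and 3201, to 3493 and 3518 and to 5365 and 5152 CPM, highest with nintedanib. The 10 oocyte markers summed to 371 and 273, to 206 and 254 and to 209 and 373 CPM, and all were detected. Markers of lymphocytes summed to at most 6.06 CPM and those of neutrophils to at most 10.1 CPM in a library, and 1 of 5 adipocyte markers had no counts in any.

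Together the members made up 0.334 and 0.331% of the COH libraries, 0.284 and 0.276% of the OHSS libraries and 0.307 and 0.293% of those with nintedanib. Per length of transcript, the levels of single members spread widely. Their mean over the libraries ranged from 5.72 to 124 CPM per kb of transcript, with a median of 27.5. The median was 31.2 CPM per kb for the large subunit and 25.5 for the small one. Mrpl20 stood highest at 124 CPM per kb, followed by Mrpl33 at 111, Mrpl42 at 98.4, Mrpl30 at 88.0 and Mrpl52 at 83.7. At the lower end stood Mrpl1 at 7.05 CPM per kb, Mrpl35 at 6.83, Mrpl53 at 6.34, Mrpl47 at 5.93 and Mrpl19 at 5.72. Neighbours in this order overlapped in the range of their 6 libraries, so the exact order is not resolved. The length is the median over annotated transcripts of a gene, from 441 to 6073 bases, and long annotated transcripts are frequent at the lower end.

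**Figure D1:**
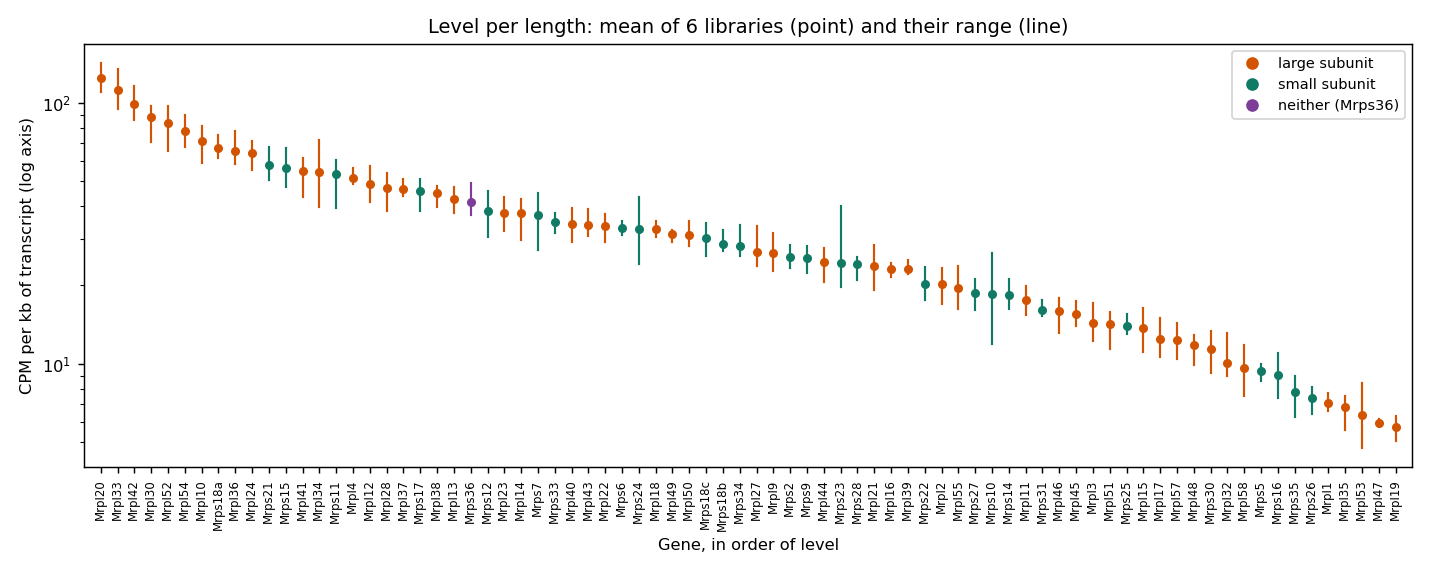
Mean level of each of the 78 members over 6 libraries, in CPM per kb of transcript on a log axis, with lines for the range over the libraries and colours for the subunit. The levels run from Mrpl20 at 124 to Mrpl19 at 5.72, and neighbouring genes overlap in their ranges.

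Without regard to length, most reads fell on Mrpl10, a protein of the stalk that recruits translation factors, and on Mrps25, Mrpl24, Mrps7 and Mrpl37. The fewest fell on Mrpl53, with 3.32 and 4.45 CPM in COH, 4.98 and 4.36 in OHSS and 5.86 and 3.49 under nintedanib. Mrps18c, Mrps28, Mrpl46 and Mrpl55 followed it from below, between 12.7 ± 0.635 CPM for Mrpl55 with nintedanib and 21.5 ± 0.812 CPM for Mrps18c in COH (SD, n = 2).

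Promoters of nuclear genes for mitochondrial proteins often carry sites for the factor NRF1, for ETS factors such as the GABP complex, and for YY1. RefSeq windows of 250 bases before to 50 bases after the start (GRCm38.p6) were found for 69 members, with 75 starts. The letters CCGGAAG, a core of ETS sites, were present on either strand in 26 of the 75 windows (34.7%), against 8.86% of all 32851 windows. The letters AAGATGGCG, a YY1 core, were in 8 windows (10.7%, against 1.40% of all), and the palindrome of NRF1, the letters GCGCA followed by their reverse complement TGCGC, in 3 (4.0%, against 0.971%). The windows of members also had more G and C, with a median of 58.7% against 52.7% over all windows, and how far this sets the matches was not tested. Searches covered both strands, and none of these motifs contains another.

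The 250 bases before the start of transcription are printed for 3 members, 5′ to 3′ on the gene's strand. Mrpl34 and Mrpl3 stood among the members with the lowest levels in OHSS relative to COH, and Mrpl39 was among the steadiest over the 6 libraries. Capitals mark CCGGAAG in the first pair and the NRF1 palindrome in the last, which begin 37, 19 and 125 bases before the start.
Mrpl34 (chr8:71464676-71464925, plus strand): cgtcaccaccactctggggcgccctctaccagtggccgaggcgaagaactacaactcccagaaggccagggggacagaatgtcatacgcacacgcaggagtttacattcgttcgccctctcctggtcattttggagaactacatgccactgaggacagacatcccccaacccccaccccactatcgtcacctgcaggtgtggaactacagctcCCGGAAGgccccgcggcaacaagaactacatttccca
Mrpl3 (chr9:105053018-105053267, plus strand): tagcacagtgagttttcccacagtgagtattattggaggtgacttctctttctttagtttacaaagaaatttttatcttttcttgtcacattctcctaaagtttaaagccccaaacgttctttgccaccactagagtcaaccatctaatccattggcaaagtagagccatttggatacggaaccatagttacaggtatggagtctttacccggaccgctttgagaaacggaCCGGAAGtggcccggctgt
Mrpl39 (chr16:84735245-84735494, minus strand): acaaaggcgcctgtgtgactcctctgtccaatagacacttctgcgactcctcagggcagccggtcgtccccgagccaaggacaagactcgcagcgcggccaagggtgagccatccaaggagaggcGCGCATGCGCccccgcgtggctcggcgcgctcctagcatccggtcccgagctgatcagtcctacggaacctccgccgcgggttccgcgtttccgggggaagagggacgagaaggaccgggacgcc
A match describes the letters only, and whether a factor binds there was not measured. The 29 members with an ETS or NRF1 match had a median log2 fold change of -0.22 in OHSS against COH, and the 40 without had one of -0.21. In nintedanib against COH the medians were -0.17 and -0.18, so members with and without an ETS or NRF1 match lay close together in both. YY1 matches were not used in this split.

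OHSS against COH asks how the ovary of the model differs from the reference group. Levels of the mitochondrial ribosomal protein genes lay mostly lower in OHSS, by a small amount, and no single member passed the test of edgeR. The summed level was 3287 ± 38.7 CPM in COH and 2890 ± 92.9 CPM in OHSS (SD, n = 2), 12.1% lower. Single libraries summed to 3259 and 3314 CPM in COH and to 2955 and 2824 CPM in OHSS, so the groups did not overlap, although 0.333 is the smallest two-sided p that an exact permutation test on such groups can reach. Of the 78 members, 73 had a lower mean in OHSS, against 50.4% of all genes tested. Their median log2 fold change was -0.21, against -0.003 over all genes, with single values from -0.65 to 0.27.

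None of the 78 members passed an adjusted p below 0.05 in the quasi-likelihood test of edgeR, with p-values adjusted by Benjamini-Hochberg over 19027 genes, a rule that called 2 genes in all (0.0105%). The smallest adjusted p among them was 0.468, and standard errors of the log2 fold changes ran from 0.0891 to 0.342. At an unadjusted p under 0.05 there were 12 members, all lower, where 8.82% of all genes passed that rule and 4.24% were lower by it. This count was 3 without the first COH library, 1 without the second, 5 without the first OHSS library and 4 without the second, so it rests on having all of them. Both OHSS libraries lay below both COH libraries for 54 members and above them for 0, against 22.9% and 21.2% of all genes. limma voom called 0 members (0% of all genes) and DESeq2 called 1, Mrps16 (1.83% of all genes).

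Other measured quantities moved with the groups. The luteal markers and the transcripts of the mitochondrial genome took more of the counts in OHSS, and the oocyte markers took less than in COH. Endothelial markers summed to 564 and 566 CPM in COH and 448 and 504 CPM in OHSS, and erythroid markers to 219 and 218 CPM in COH against 60.4 and 173 CPM in OHSS. Immediate early genes, which react to handling of tissue, summed to 1058 and 1382 CPM in COH and 668 and 799 CPM in OHSS. The part of these shifts in the lower levels of the members was not tested. In bulk tissue, fewer cells of a type and less RNA per cell cannot be told apart.

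**Figure D2:**
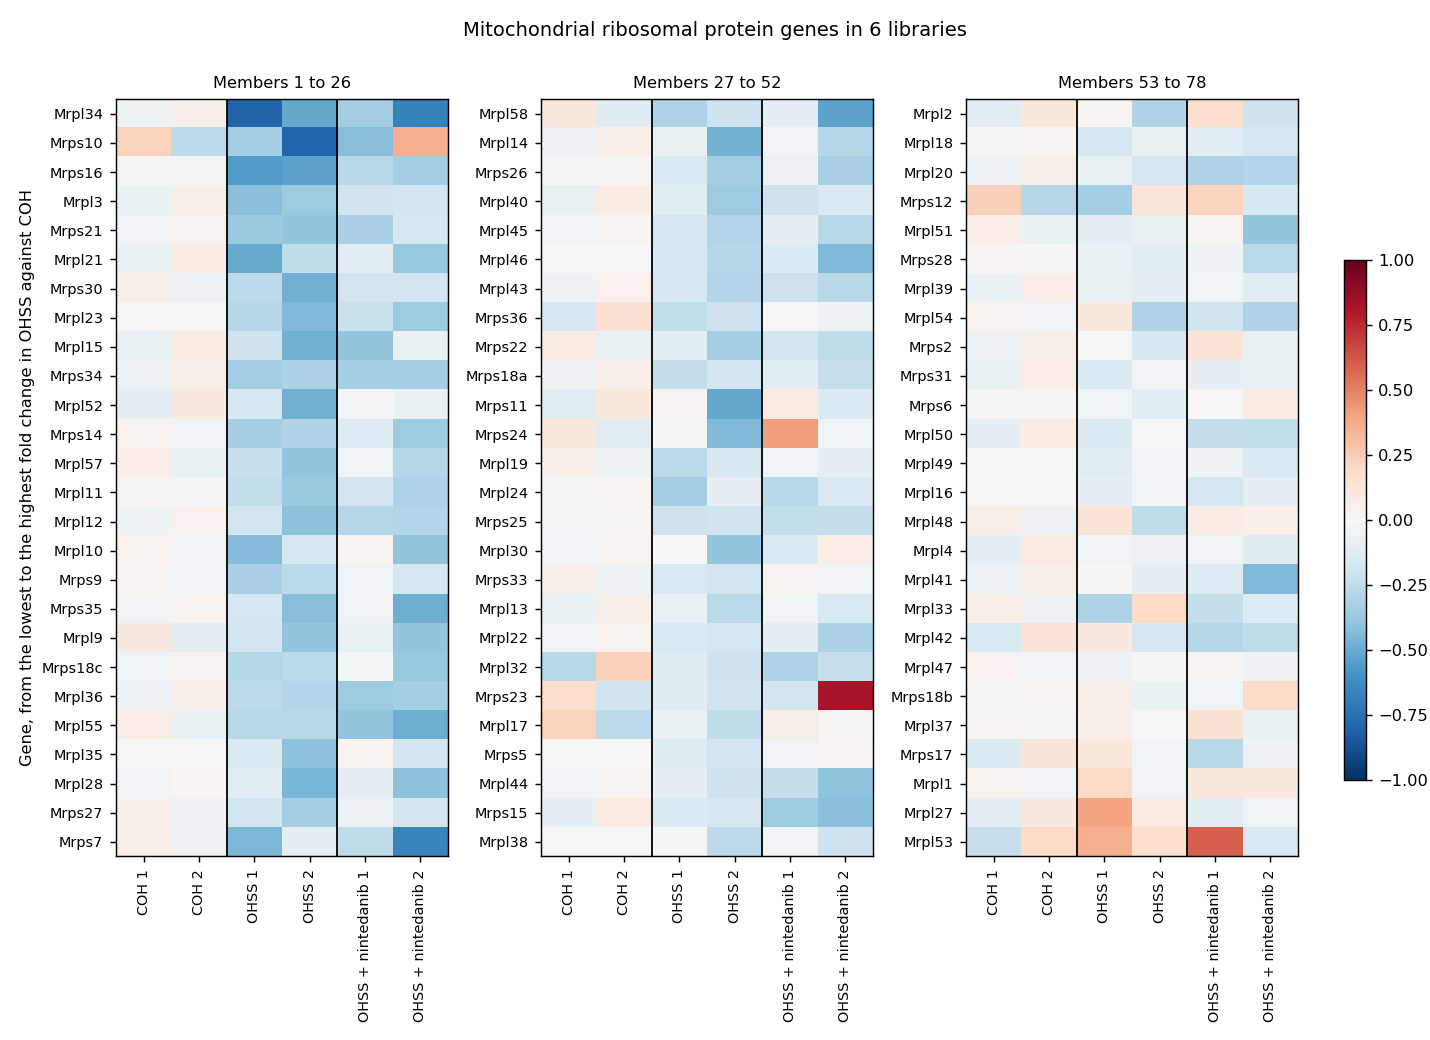
Levels of the 78 members in 6 libraries as log2 CPM minus the mean of the 2 COH libraries, in 3 blocks of genes ordered by the fold change in OHSS against COH. Most rows are on the lower side in the OHSS columns, and a few rows differ more between replicates than between groups. The edgeR log2 fold changes that set the order run from -0.65 for Mrpl34 to 0.27 for Mrpl53, and single libraries can lie outside them.

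In the small subunit, 25 of 26 members had a lower mean in OHSS, with a median log2 fold change of -0.22. For 18 of them both OHSS libraries lay below both COH libraries, against 22.9% of all genes. Mrps16 (ENSMUSG00000049960), a protein of the small subunit's body whose loss in people impairs the respiratory chain, was measured at 28.2 and 27.9 CPM in COH, 19.1 and 19.4 in OHSS and 23.1 and 22.2 under nintedanib. The groups were fully separate for it, with OHSS lowest and the nintedanib libraries in between. Its means were 28.0 ± 0.240 CPM in COH and 19.2 ± 0.239 in OHSS (SD, n = 2). The log2 fold change was -0.54 (SE 0.114, adjusted p = 0.468 by edgeR). DESeq2 gave an adjusted p of 0.0126 for this gene, so its call depends on the tool.

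Mrps21, another small protein with a bacterial counterpart, had 28.8 and 30.3 CPM in COH and 22.9 and 22.6 in OHSS, without overlap. Its log2 fold change was -0.38 (SE 0.122), and that of Mrps9, a protein that lies near the transfer RNAs, was -0.30 (SE 0.111). Mrps34, a mitochondria-specific protein needed to keep the small ribosomal RNA stable, had 29.0 and 31.3 CPM in COH and 23.6 and 24.3 in OHSS. The log2 fold change of Mrps34 was -0.33 (SE 0.115), and its reads are uncertain because its exons overlap coding genes on both strands. For these genes all OHSS libraries lay below all COH libraries, and their adjusted p by edgeR was between 0.542 and 0.550.

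Mrps22, known from ovarian insufficiency in people, had 28.1 and 25.3 CPM in COH and 24.7 and 21.1 in OHSS, lower without overlap at a log2 fold change of -0.22 (SE 0.141). Mrps12, a protein of the decoding centre, had 36.6 and 25.6 CPM in COH and 24.6 and 33.9 in OHSS, and its replicates differed more than its groups. Mrps18b and Mrps18c are paralogues in the small subunit. Their log2 fold changes were -0.0032 (SE 0.136) and -0.28 (SE 0.163), and that of Mrps18a, the paralogue in the large subunit, was -0.22 (SE 0.106). The groups overlapped for Mrps18b and were separate for the other pair. Mrps6, whose exons overlap a coding gene on the same strand, stood at -0.08 (SE 0.111).

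In the large subunit, 47 of 51 members had a lower mean in OHSS, with a median log2 fold change of -0.19. For 35 of them both OHSS libraries lay below both COH libraries, against 22.9% of all genes. Mrpl34 (ENSMUSG00000034880), a short protein buried in ribosomal RNA, had the most negative fold change of all members. It was measured at 40.9 and 43.7 CPM in COH, 24.3 and 29.7 in OHSS and 33.2 and 26.5 under nintedanib. Both groups of the model lay below COH for this gene and overlapped with each other. Its log2 fold change in OHSS was -0.65 (SE 0.171, adjusted p = 0.526 by edgeR).

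Mrpl3 (ENSMUSG00000032563), a core protein near the site of peptide bond formation, had 49.1 and 53.5 CPM in COH, 38.4 and 39.8 in OHSS and 44.7 and 44.9 under nintedanib. As with Mrps16, the groups were fully separate and nintedanib lay between the others. The log2 fold change of Mrpl3 was -0.39 (SE 0.104, adjusted p = 0.526 by edgeR). Mrps30, the mitochondria-specific protein of this subunit with a small-subunit name, had 44.3 and 40.8 CPM in COH and 35.6 and 30.6 in OHSS, a log2 fold change of -0.36 (SE 0.125). It was separate between the groups, with a coding gene on the opposite strand over its exons.

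The stalk that receives translation factors is built from Mrpl12 on a base of Mrpl10 and Mrpl11. Mrpl12 had 70.6 and 75.3 CPM in COH and 63.8 and 54.8 in OHSS, Mrpl11 38.4 and 37.9 against 32.1 and 29.6 CPM, and Mrpl10 99.7 and 95.4 against 72.3 and 86.4 CPM. All 3 were lower in both OHSS libraries than in both COH libraries. Their log2 fold changes were -0.30 (SE 0.117), -0.31 (SE 0.115) and -0.30 (SE 0.177), with adjusted p of 0.565, 0.553 and 0.670 by edgeR. Mrpl36, a small zinc-binding protein, stood at -0.28 (SE 0.101) and was also separate.

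Smaller values were measured for other large-subunit members with known roles. Mrpl44, which has a fold like RNase III, stood at -0.15 (SE 0.119), and Mrpl41 at -0.04 (SE 0.143). Mrpl58, a peptidyl-tRNA hydrolase that releases stalled chains, stood at -0.26 (SE 0.190). Of these, Mrpl44 and Mrpl58 were separate between the groups and Mrpl41 was not.

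The 5 members with a higher mean in OHSS were Mrpl53, Mrpl27, Mrpl1, Mrps17 and Mrpl37. Mrpl27, which reaches toward the site of peptide bond formation, had 18.0 and 20.6 CPM in COH and 25.4 and 20.5 in OHSS, a log2 fold change of 0.25 (SE 0.163). That of Mrpl53 was 0.27 (SE 0.338), and those of Mrpl1, Mrps17 and Mrpl37 were 0.09, 0.04 and 0.02. All 5 overlapped between the groups, so none was higher beyond the spread of its replicates.

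**Figure D3:**
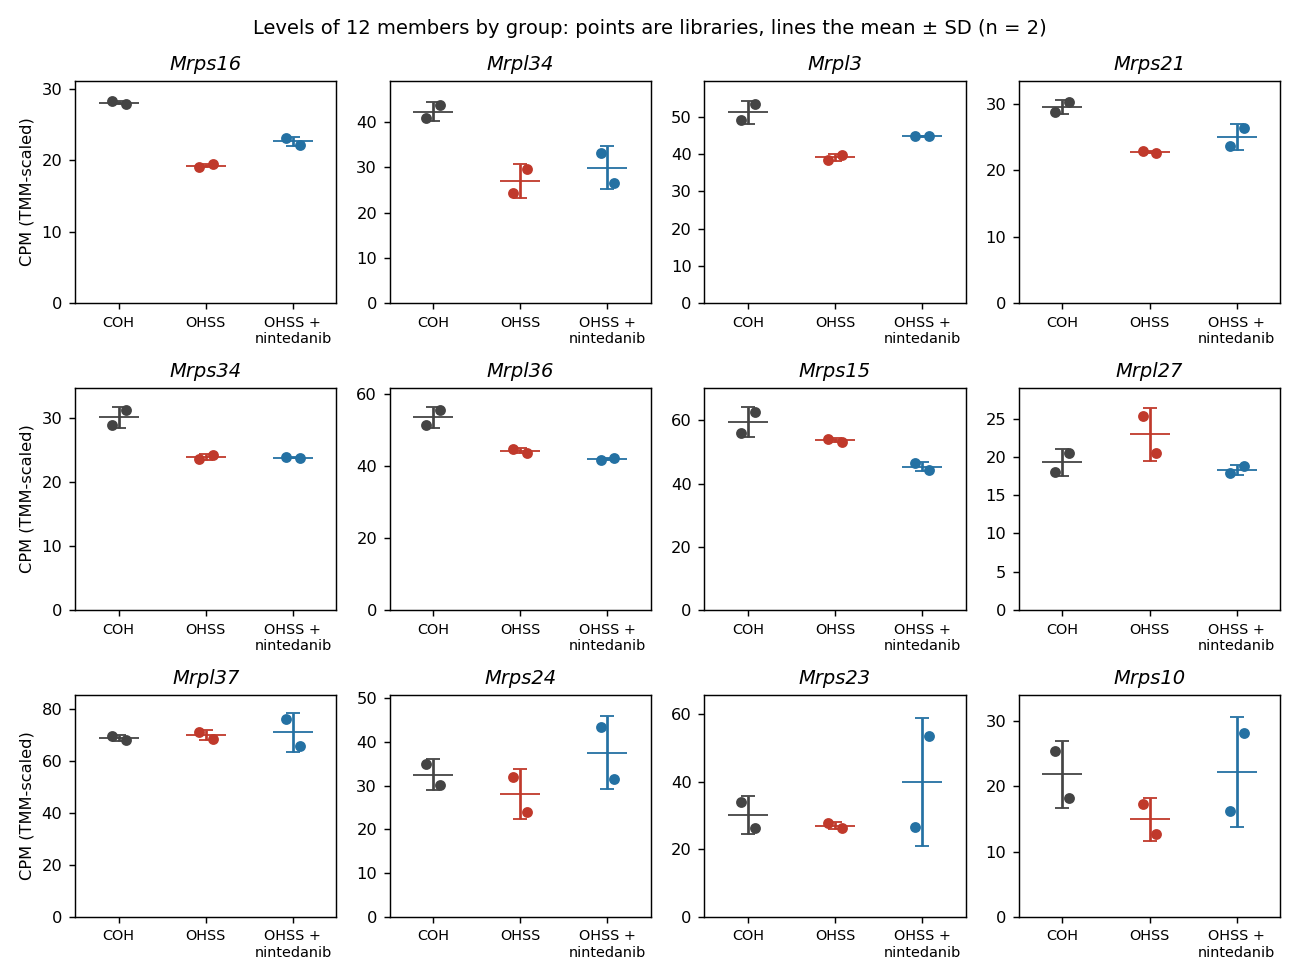
Levels of 12 members in CPM on linear axes that start at 0, by group, with a point per library and lines for the mean and SD (n = 2). Mrps16 and Mrpl3 are lowest in OHSS with all groups separate, while Mrps23 and Mrps10 have replicates with nintedanib that lie far apart.

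Members with a bacterial counterpart and members specific to mitochondria had similar medians in OHSS against COH. The log2 medians were -0.21 and -0.17, with lower means for 43 of 46 and 29 of 31. Most members lay lower both with and without overlap with other genes. Exons of 23 members overlap another coding gene in the GENCODE models, and without strand information their reads cannot be assigned with certainty. Mrpl27, Mrpl36, Mrpl44, Mrpl47, Mrpl49, Mrpl53, Mrps7 and Mrps25 are among these. The 55 members without such overlap had a lower mean in OHSS in 52 cases and a log2 median of -0.19, beside -0.21 for the overlapping ones. Within 1000 bases of their start, 18 members face a coding gene that runs the other way. The 17 such neighbours that were measured and are no members had a log2 median of -0.06, with 11 of 17 lower. Mrpl48, Mrpl23 and Mrps36 have pseudogenes that could share their reads, so their levels are uncertain. The pseudogene of Mrpl48 had a mean of 5.16 CPM and that of Mrpl23 1.01 CPM.

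The comparison of nintedanib with untreated OHSS addresses the effect of the drug within the model. For the mitochondrial ribosomal protein genes no shift beyond the spread of the libraries was detected. The summed level with nintedanib was 2947 ± 130 CPM (SD, n = 2), with libraries at 3038 and 2855 CPM that overlap those of OHSS. The mean was higher for 51 members and lower for 27, against 51.5% higher among all genes. Their median log2 fold change was 0.05, against 0.01 over all genes, with a range from -0.33 to 0.57. This median turned to -0.04 without the first nintedanib library and to -0.003 without the second OHSS library, so its direction rests on single libraries.

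No member passed an adjusted p below 0.05 by edgeR's quasi-likelihood test, which called 1 gene in all (0.00526%), and 0 members had an unadjusted p under 0.05, against 7.42% of all genes. The smallest adjusted p was 0.695. DESeq2 (1.12% of all genes) and limma voom (0.00526%) also called 0 members. Both nintedanib libraries lay above both OHSS libraries for 12 members (19.2% of all genes) and below them for 13 (16.9% of all genes), which are shares close to the background.

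Among the 12 were Mrps16 at a log2 fold change of 0.23 (SE 0.114) and Mrpl3 at 0.20 (SE 0.104), where the nintedanib libraries lay between OHSS and COH. Mrpl52, with 37.3 and 42.6 CPM in COH, 35.3 and 28.7 in OHSS and 39.4 and 38.1 under nintedanib, stood at 0.28 (SE 0.148). Mrps9 stood at 0.19 (SE 0.111) and Mrps30 at 0.18 (SE 0.125). In each of these genes the levels with nintedanib were nearer to COH than those of OHSS were. They were named for a small p in this comparison or in OHSS against COH, which share the OHSS libraries. That order thus follows in part from how they were chosen and is no result on the members.

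Among the 13 on the lower side was Mrps15, a protein of the small subunit's platform, with 56.0 and 62.7 CPM in COH, 54.1 and 53.2 in OHSS and 46.4 and 44.4 under nintedanib. It was lowest with nintedanib, at a log2 fold change of -0.24 against OHSS (SE 0.108, adjusted p = 0.695 by edgeR). Mrpl27 had 17.8 and 18.8 CPM with nintedanib and stood at -0.33 (SE 0.163). Mrpl20, Mrpl41, Mrpl42 and Mrpl50 stood at -0.18, -0.24, -0.24 and -0.17, all large-subunit members and all separate from OHSS. The large subunit as a whole had a log2 median of 0.01 with 30 of 51 members higher, and the small subunit one of 0.10 with 20 of 26 higher. The difference between the subunits was not tested.

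The widest values in this comparison came from single libraries. Mrps23, a mitochondria-specific protein of the small subunit, had 34.1 and 26.2 CPM in COH, 27.6 and 26.3 in OHSS and 26.6 and 53.5 under nintedanib. Mrps10 had 25.5 and 18.2 CPM in COH, 17.3 and 12.6 in OHSS and 16.2 and 28.1 under nintedanib. In both genes the second nintedanib library was the highest of the 6 and the first was close to OHSS, so the log2 fold changes of 0.57 (SE 0.343) and 0.57 (SE 0.335) did not exceed the spread. Mrps24, which lies where the mRNA enters, had 35.0 and 30.1 CPM in COH, 32.0 and 24.0 in OHSS and 43.4 and 31.6 under nintedanib, with its first nintedanib library highest. Its exons overlap a coding gene on the same strand, and its log2 fold change was 0.42 (SE 0.225).

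OHSS with nintedanib against COH compares the treated model with the reference group, using the same COH libraries as the first comparison. The members again lay mostly lower than in COH. The summed level was 10.3% below that of COH, and both nintedanib libraries were below both COH libraries. A lower mean was found for 66 of 78 members, against 50.1% of all genes. The median log2 fold change was -0.17, against -0.001 over all genes, with a range from -0.50 to 0.41. Without the second nintedanib library it was -0.09, so the size of the shift rests in part on that library.

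No member passed an adjusted p below 0.05 by edgeR's quasi-likelihood test, which called 5 genes in all (0.0263%). At an unadjusted p under 0.05 there were 9 members, all lower, where 9.7% of all genes passed that rule and 4.08% were lower by it. This count was 3 without the first COH library, 0 without the second and 0 without the second nintedanib library. Both nintedanib libraries lay below both COH libraries for 42 members (22.7% of all genes) and above them for 1, Mrpl1 (22.3% of all genes). DESeq2 (2.29% of all genes) and limma voom (0.0105%) called 0 members, and the smallest edgeR adjusted p was 0.491. The sum of the granulosa markers was highest with nintedanib, where 8 of the 9 had a higher mean than in COH and 1, Amh, a lower one. The 5 erythroid markers summed to 156 and 84.0 CPM there, below both COH libraries, and immediate early genes to 717 and 1543 CPM, on either side of COH. Their part in the values of the members was not tested.

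The large subunit was lower in 46 of 51 members with a log2 median of -0.18, and the small subunit in 19 of 26 with one of -0.14. Mrps15 had the smallest p of the members, at a log2 fold change of -0.39 (SE 0.108, adjusted p = 0.491 by edgeR). Mrpl34 stood at -0.50 (SE 0.171), Mrps34 at -0.34 (SE 0.115) and Mrps16 at -0.31 (SE 0.114). All of these were separate from COH.

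Mrpl36 was measured at 51.5 and 55.6 CPM in COH, 44.7 and 43.8 in OHSS and 41.8 and 42.3 under nintedanib, and Mrpl55 at 18.0 and 16.5 CPM in COH, 14.2 and 14.2 in OHSS and 13.1 and 12.2 under nintedanib. Both genes were highest in COH and lowest with nintedanib, with all 3 groups separate. Their log2 fold changes against COH were -0.35 (SE 0.101) and -0.44 (SE 0.138). Mrpl20 followed the same order, with 64.3 and 69.9 CPM in COH, 64.1 and 59.8 in OHSS and 54.4 and 54.7 under nintedanib, at -0.30 (SE 0.104). Mrpl44 stood at -0.32 (SE 0.119), Mrps25, a gene with many reads, at -0.24 (SE 0.0891), and Mrps7 at -0.44 (SE 0.193). Exons of Mrpl36, Mrpl44, Mrps25 and Mrps7 overlap coding genes on the opposite strand, so their reads are uncertain.

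The highest log2 value was that of Mrps23 at 0.41 (SE 0.342), which rests on the second nintedanib library. Mrpl1, a protein of the stalk at the exit for spent transfer RNA, had 23.7 and 22.6 CPM in COH and 24.9 and 24.7 under nintedanib. It was separate from COH on the higher side, at 0.10 (SE 0.134), which is smaller than its error.

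**Figure D4:**
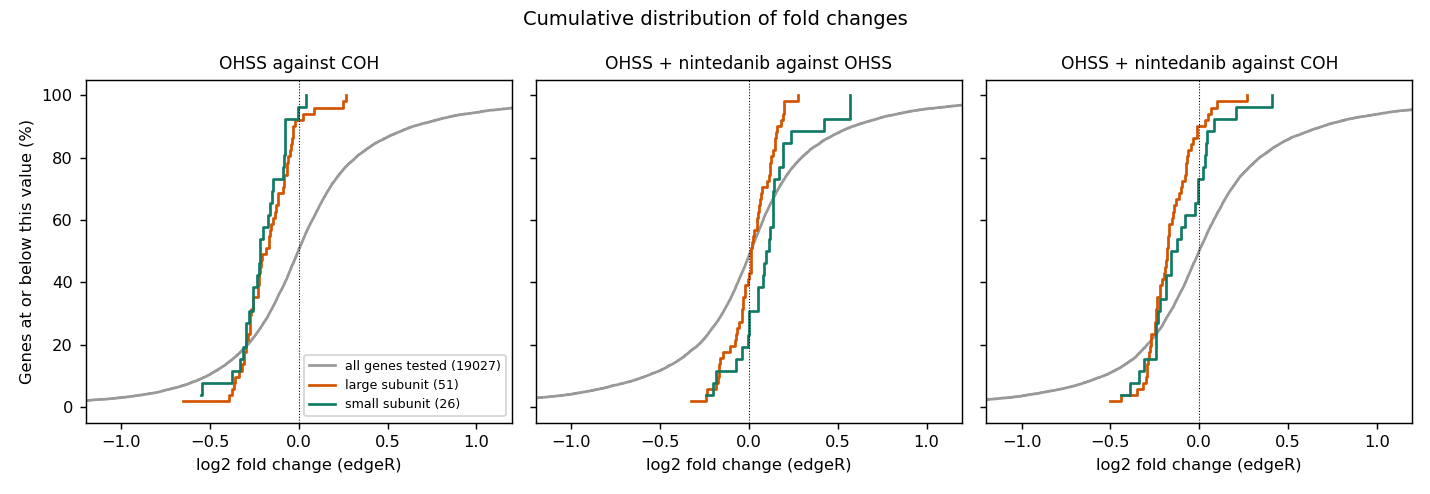
Cumulative share of genes, in %, at or below each edgeR log2 fold change, in a panel per comparison. Curves are for 51 members of the large subunit, 26 of the small subunit and all 19027 genes tested. Against COH, the subunit medians lie left of that of all genes. They are -0.19 (large) and -0.22 (small) in OHSS, and -0.18 and -0.14 with nintedanib. For nintedanib against OHSS they are 0.01 and 0.10, nearer to that of all genes.

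Replicates were close for most members. The median difference between the libraries of a group, as an absolute log2 ratio, was 0.111 in COH, 0.131 in OHSS and 0.131 with nintedanib, beside 0.195, 0.259 and 0.265 over all genes. In OHSS, 53 of 78 members were lower in the second library than in the first, and with nintedanib 57 of 78 were. The median of the members relative to COH was -0.14 and -0.24 in the OHSS libraries and -0.09 and -0.20 in the nintedanib libraries, on the log2 scale. Within each of these groups the libraries thus lay further apart than the 2 group means did.

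The steadiest members over the 6 libraries were Mrpl47, with a log2 range of 0.0961, Mrpl49 at 0.155, Mrpl16 at 0.169, Mrpl39 at 0.179 and Mrps6 at 0.183. Mrpl47 was measured at 20.7 and 19.5 CPM in COH, 19.3 and 20.3 in OHSS and 20.5 and 19.4 under nintedanib, with all groups overlapping. Exons of Mrpl47 and Mrpl49 overlap coding genes on the opposite strand, so their reads are uncertain. The widest ranges were those of Mrps10 at 1.15, Mrps23 at 1.03, Mrps24 at 0.857, Mrpl34 at 0.848 and Mrpl53 at 0.810. Of these, Mrpl34 had all 4 libraries of the model below both COH libraries, and the other 4 overlapped with COH in at least 1 group.

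Other genes of the mitochondrial translation system are given by lists made from function. No gene of these 6 lists passed the adjusted threshold by edgeR in any comparison, and 0 to 2 genes of a list had an unadjusted p under 0.05. DESeq2 called 1, in the list of mitochondrial DNA upkeep with nintedanib against COH. The 5 mitoribosomal proteins with other names, Dap3, Ptcd3, Chchd1, Aurkaip1 and Gadd45gip1, all had lower means in OHSS than in COH, at a log2 median of -0.21. In nintedanib against OHSS 4 of 5 were higher (median 0.13), and against COH 4 of 5 were lower (median -0.13). Chchd1, a small-subunit protein, had 32.1 and 31.9 CPM in COH, 27.4 and 22.4 in OHSS and 28.0 and 30.4 under nintedanib.

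The 25 assembly factors were less uniform, with 16 lower in OHSS and a log2 median of -0.11. Ddx28 and Dhx30, RNA helicases of the mitochondrial RNA granule, lay on the other side at 0.37 (SE 0.140) and 0.22 (SE 0.105). Ddx28 was measured at 22.9 and 19.9 CPM in COH, 28.4 and 27.0 in OHSS and 20.8 ± 1.69 (SD, n = 2) under nintedanib, with OHSS separate and highest. Against OHSS the nintedanib values were -0.41 for Ddx28 and -0.27 for Dhx30.

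Of 15 translation factors, 10 had a lower mean in OHSS, with a log2 median of -0.14. Tufm, the elongation factor that brings transfer RNA to the ribosome, had 77.5 and 78.9 CPM in COH, 62.6 and 58.9 in OHSS and 72.0 and 65.6 under nintedanib, at -0.36 in OHSS (SE 0.104). Oxa1l, which inserts new proteins into the inner membrane, stood at -0.29 (SE 0.0947), and the recycling factor Mrrf at -0.22 (SE 0.120). These genes were lower in both OHSS libraries than in both COH libraries, like most ribosomal members.

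The 17 mitochondrial aminoacyl-tRNA synthetases, which charge transfer RNA, had a log2 median of 0.02 in OHSS, with 9 higher and 8 lower. Tars2 stood at 0.34 (SE 0.103) in OHSS against COH, and Vars2 at 0.48 (SE 0.112) with nintedanib against OHSS. The 11 genes of mitochondrial DNA transcription and upkeep had medians of 0.01, -0.07 and -0.004 in the 3 comparisons, and Polg, the mitochondrial DNA polymerase, stood at 0.50 (SE 0.121) with nintedanib against COH. Among the 9 regulators of mitochondrial biogenesis the medians were -0.12, -0.02 and 0.01. Nrf1 and Gabpa, whose products bind the motifs searched above, stood at -0.12 (SE 0.135) and 0.24 (SE 0.130) in OHSS against COH, and neither passed the test.

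Groups of genes that work beside the mitochondrial ribosome are set here only by counts and medians. Of the 84 cytosolic ribosomal protein genes, 83 had a lower mean in OHSS than in COH, at a log2 median of -0.46, and 77 were lower with nintedanib than in COH, at -0.32. Many of these have processed copies elsewhere in the genome, so their counts are uncertain. None passed the adjusted threshold by edgeR, with 60 and 31 at an unadjusted p under 0.05 (8.82 and 9.7% of all genes), and DESeq2 called 20 and 2 (1.83 and 2.29% of all genes). Of the 81 nuclear genes of the respiratory chain, 76 and 77 were lower in the same comparisons, at -0.28 and -0.20. Here too edgeR called 0, with 24 and 12 at an unadjusted p under 0.05, and DESeq2 called 2 and 2, against the same shares of all genes. The ribosomal members, at -0.21 and -0.17, lay on the same side as both with a smaller median in size, and the difference between the groups of genes was not tested.

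The RNAs that the mitochondrial ribosome translates lay on the other side, and their proteins were not measured. Of the 13 protein-coding genes of the mitochondrial genome, 12 had a higher mean in OHSS than in COH, at a log2 median of 0.34. With nintedanib, 13 of 13 were lower than in OHSS, at -0.37. Their sum was 49735 and 58419 CPM in COH, 69702 and 71189 in OHSS and 57084 and 54331 under nintedanib. By this sum, both OHSS libraries lay above all others. Singly, 10 of the 13 were higher in both OHSS libraries than in both COH libraries, against 21.2% of all genes. All 13 were lower in both nintedanib libraries than in both OHSS libraries, against 16.9% of all genes. With nintedanib against COH, 7 of 13 were higher and 6 lower, at a log2 median of 0.02. mt-Atp6 stood apart from the other 12, with 802 and 997 CPM in COH, 5454 and 5335 in OHSS and 3500.0 and 4403 under nintedanib. Its log2 fold changes were 2.58 (SE 0.195, adjusted p = 0.0840 by edgeR) in OHSS and 2.13 (SE 0.192) with nintedanib, each against COH. Several of these have near-identical copies in the nuclear genome, so their counts are uncertain. None passed the adjusted threshold by edgeR. At an unadjusted p under 0.05 there were 5 higher in OHSS than in COH (4.59% of all genes) and 4 lower with nintedanib than in OHSS (3.47% of all genes). DESeq2 called 1 in each of the 3 comparisons, where it called 1.83, 1.12 and 2.29% of all genes.

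**Figure D5:**
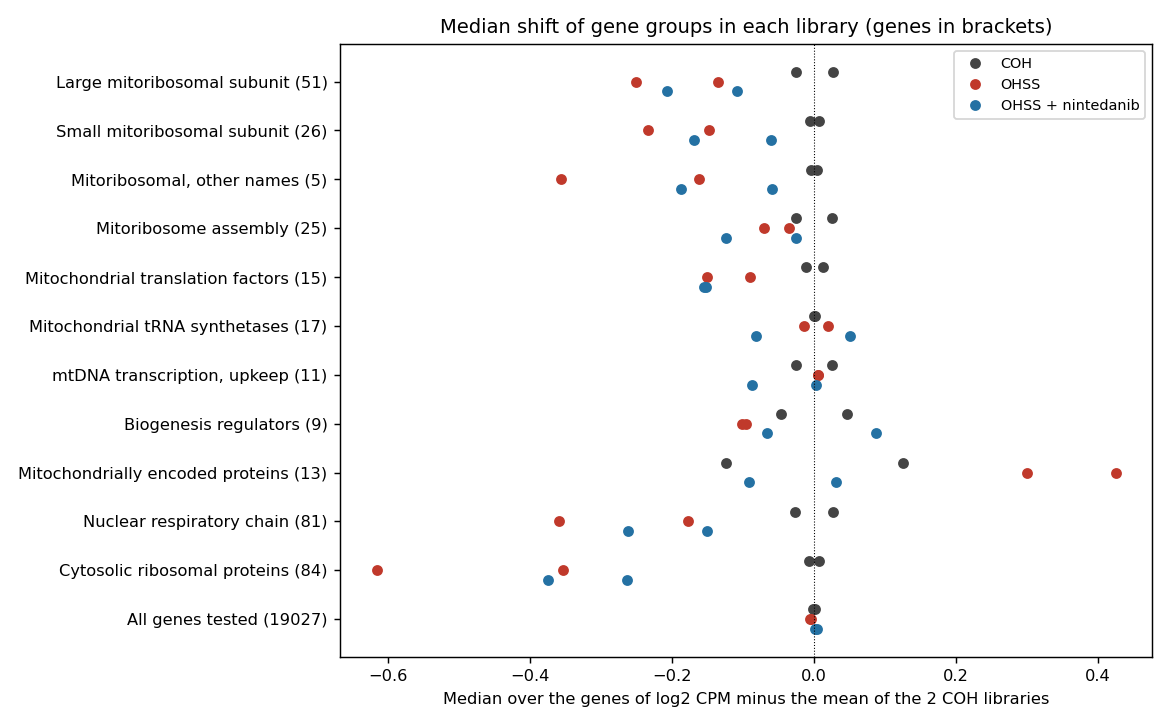
Median over the genes of each group of log2 CPM minus the mean of the 2 COH libraries, with a point per library and the number of genes in brackets. The large mitoribosomal subunit lies at -0.13 and -0.25 in OHSS and at -0.11 and -0.21 with nintedanib. The small subunit lies at -0.15 and -0.23 in OHSS and at -0.06 and -0.17 with nintedanib. Both lie between the cytosolic ribosomal protein genes further left and the mitochondrially encoded genes to the right.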

How the data were processed

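The deposited table holds whole-number counts per gene for 6 libraries and 51826 genes, per the file headers. Per the submitters' processing notes, Trimmomatic 0.36, HISAT2 2.1.0 and StringTie 1.3.3b were used with the build mm8. No counting program, annotation or strand setting is named in the sources used here. A read pair appears to count as 2 reads, so counting error is larger than the counts alone give.

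Genes were filtered with filterByExpr in edgeR 4.0.16 (R 4.3.3) and scaled with TMM. All 3 groups entered 1 fit, tested two-sided with the quasi-likelihood F test of edgeR, with Benjamini-Hochberg adjustment over 19027 genes and calls below 0.05. It has 3 residual and 2.41 prior degrees of freedom. Standard errors were derived from the F statistic. The scripts were tested on simulated data. Alternatives were other scalings, filters, DESeq2 1.42.0, limma voom (limma 3.58.1), fits restricted to the compared groups, each library left out in turn and a replicate block.

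The members and lists were chosen with earlier results of these data known. Named were the members called or, per comparison, the 6 with the smallest p in each direction, the 5 highest, lowest, widest and narrowest, and a list of members with known roles. Of each pathway list, up to 4 genes with the smallest p were named. Lengths came from GENCODE M21 and promoters from RefSeq, both on GRCm38, matched by symbol, with no coordinates taken over from the deposited table.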

Additional observations from a re-analysis of the deposited data

How the results depend on the processing

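The lower medians against COH kept their direction under every alternative run. A group of 2 libraries limits what can be called. With library size only as the scaling, the median log2 fold change was -0.27 in OHSS against COH, with 3 members higher, and 0.12 with nintedanib against OHSS. DESeq2 called 1 member in OHSS against COH. Leaving out 1 library at a time gave medians from -0.24 to -0.15 in OHSS against COH, with 5 to 12 members higher. It gave -0.035 to 0.10 with nintedanib against OHSS, with 29 to 57 members higher, and -0.20 to -0.093 with nintedanib against COH, with 9 to 16 higher. The 29 belong to the fit without the first nintedanib library, and the 12 to that without the second OHSS library. In these fits a lone library is assumed to vary like the other groups, and 0 members were called. Of 43 named members, 10, 24 and 11 changed sign under some alternative in the 3 comparisons, and the cause was not tested. Same-numbered replicates did not deviate together over all genes (correlations of -0.0007, 0.05 and -0.002). Such correlations cannot exclude a pairing, and the labels do not say whether the numbers pair the samples. With a replicate block, 0 members were called in each comparison, and 1, 0 and 2 genes in all against 2, 1 and 5 without it. Members at an unadjusted p under 0.05 against COH numbered 9 in OHSS and 4 with nintedanib under the block, beside 12 and 9 without it, and 19 in OHSS with library size only.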
